A study of Mus musculus with 8 samples.

Results

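A set of 10 genes of the blood stem and progenitor program were followed through early T-cell development, with and without CRISPR guides against STAT5. They are the transcription factor genes Spi1, Bcl11a, Lmo2, Lyl1, Hhex, Mef2c, Hoxa7 and Hoxa9 and the receptor genes Kit and Flt3. They were taken as a list that was set with earlier results of these data known. They were found by symbol, 10 of the 24506 genes in the count table, and all 10 passed the filter on low counts.

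Blood stem cells and multipotent progenitors hold a set of transcription factors that is largely dismantled when a cell becomes committed to the T lineage. PU.1, encoded by Spi1, and its co-expressed partners keep myeloid and dendritic options open, while Notch signals drive the T program and switch on Bcl11b, the gene that marks commitment. Kit and Flt3 are receptor tyrosine kinases that bind stem cell factor and Flt3 ligand and sustain progenitors. STAT5A and STAT5B carry the signal of IL-7 and similar cytokines into the nucleus.

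The 8 RNA-seq libraries came from mouse bone marrow progenitors of B6 animals that all carried Cas9, a Bcl2 transgene and a Bcl11b-mCherry reporter, so the controls carried them too. All cells spent a night in IL-7, Flt3 ligand and stem cell factor and received guides by retrovirus. Culture went on for 6 days on OP9-DLL1 stromal cells, which present a Notch ligand, and the medium held 10 ng/ml of IL-7 and 10 ng/ml of Flt3 ligand. The sgStat5 cells received 3 guides against Stat5a and 3 against Stat5b. The target of the sgControl guides is not stated in the sources used here. Lineage-negative, infected, CD25-positive cells were sorted as mCherry-positive (post-commitment, the late gate) or mCherry-negative (pre-commitment, the early gate), although the series text calls both gates reporter negative. The 4 groups were late sgStat5, late sgControl, early sgStat5 and early sgControl, with 2 libraries each. Both receptors' ligands were thus given in culture, stem cell factor only before infection.

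Totals ran from 22146490 to 31209177 counts per library. Bcl11b RNA matched the gates, with 797 and 415 CPM (counts scaled to library size) in late sgStat5, 542 and 219 in late sgControl, 132 and 70.1 in early sgStat5 and 132 and 45.6 in early sgControl libraries. Stat5a lay at 105 to 116 CPM in the sgStat5 libraries and at 238 to 258 CPM in the sgControl libraries. Stat5b lay at 133 to 154 CPM in the sgStat5 and at 249 to 280 CPM in the sgControl libraries. The RNA of both targeted genes was thus lowered, not removed. Throughout, a pair of values stands for replicate 1 and then replicate 2. The labels do not say whether the replicates were separate cultures or animals, so the p-values speak for the spread of these libraries alone. Bcl11b was higher in replicate 1 in all 4 groups, and the replicate numbers deviated together across genes, with correlations of 0.397 to 0.555. Calls are therefore counted from edgeR's quasi-likelihood test both without and with the replicate number as a block, with p-values adjusted by the Benjamini-Hochberg method over 13775 genes and called below 0.05. The fold change of a single gene comes from the fit named beside it or in the sentence before.

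Per length of transcript, the members spanned a wide range of levels. Averaged over the 8 libraries, Lyl1 stood at 47.2 and Kit at 45.6 FPKM (a level per kilobase of transcript). Hhex followed at 18.9 and Spi1 at 14.9 FPKM. Bcl11a averaged 5.98, Hoxa7 1.89 and Mef2c 1.28 FPKM. Lmo2 at 0.823, Hoxa9 at 0.810 and Flt3 at 0.238 FPKM were the 3 lowest, resting on 2 to 120, 2 to 209 and 9 to 79 counts per library. FPKM were computed by the authors on another transcript than the counts for Lmo2, Mef2c, Bcl11a and Hoxa9, and for Bcl11a that transcript is 1473 bases long against 6106.

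PU.1 is an ETS-family factor required for myeloid cells and present in the earliest thymic immigrants. Its gene, Spi1 (chromosome 2, 91096678 to 91115759, mm10, plus strand), stood at 11.7 and 25.3 CPM in late sgStat5 libraries, 7.54 and 16.9 in late sgControl, 49.3 and 50.5 in early sgStat5 and 30.7 and 47.2 in early sgControl libraries. The late libraries all lay below the early ones, early sgStat5 lay above early sgControl, and the guide groups of the late gate overlapped. Bcl11a (chromosome 11, 24078056 to 24168435, plus strand) encodes a zinc-finger repressor of stem cells and B-cell precursors. It stood at 12.9 and 25.8 CPM in late sgStat5, 8.50 and 25.2 in late sgControl, 65.9 and 75.2 in early sgStat5 and 34.2 and 48.7 in early sgControl libraries. Its groups kept the same order as those of Spi1, again with overlap only between the late groups.

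Lmo2 (chromosome 2, 103970287 to 103981878, plus strand) encodes a bridging protein that joins GATA and basic helix-loop-helix factors and is a T-cell leukaemia oncogene. It stood at 1.06 and 0.968 CPM in late sgStat5, 0.0766 and 0.742 in late sgControl, 2.65 and 3.84 in early sgStat5 and 1.10 and 3.86 in early sgControl libraries. The early groups overlapped and lay above both late groups. The lowest library, late sgControl replicate 1, held 2 counts, with a 95% Poisson interval of 0.242 to 7.22 that covers counting error only.

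Lyl1 (chromosome 8, 84701457 to 84704716, plus strand) encodes a helix-loop-helix partner of LMO2. It stood at 40.3 and 107 CPM in late sgStat5, 68.6 and 129 in late sgControl, 137 and 165 in early sgStat5 and 125 and 170 in early sgControl libraries. Neighbouring groups in the order of levels overlapped throughout. Lyl1 overlaps Nfix on the opposite strand, which held 988 to 2670 counts per library, and the kit keeps no strand, so reads of the 2 genes cannot be told apart in the overlap. Hhex (chromosome 19, 37434841 to 37440731, plus strand) encodes a homeobox factor of early lymphoid progenitors. It stood at 24.5 and 43.4 CPM in late sgStat5, 17.7 and 33.3 in late sgControl, 79.3 and 69.3 in early sgStat5 and 46.5 and 56.6 in early sgControl libraries, and only the late groups overlapped.

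Mef2c (chromosome 13, 83524743 to 83667079, plus strand) encodes a MADS-box factor of lymphoid and myeloid progenitors. It stood at 5.75 and 4.23 CPM in late sgStat5, 4.79 and 3.97 in late sgControl, 26.4 and 22.2 in early sgStat5 and 8.27 and 12.7 in early sgControl libraries. The early sgStat5 libraries stood clear of the rest, and the late groups overlapped at the bottom.

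The HOXA factors are homeobox proteins that sustain stem and progenitor cells, and their genes sit in 1 cluster. Hoxa7 (chromosome 6, 52215624 to 52218573, minus strand) stood at 7.87 and 10.6 CPM in late sgStat5, 2.26 and 3.16 in late sgControl, 4.36 and 7.72 in early sgStat5 and 1.50 and 3.02 in early sgControl libraries. Both sgStat5 groups lay above both sgControl groups, which overlapped each other. Hoxa9 (chromosome 6, 52223097 to 52227370, minus strand) stood at 4.02 and 7.49 CPM in late sgStat5, 0.0766 and 2.19 in late sgControl, 4.04 and 6.09 in early sgStat5 and 1.69 and 2.47 in early sgControl libraries. Here too every sgStat5 library lay above every sgControl library, and the gates overlapped within each guide arm. Late sgControl replicate 1 again held 2 counts.

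Kit (chromosome 5, 75574987 to 75656721, plus strand) stood at 217 and 309 CPM in late sgStat5, 198 and 253 in late sgControl, 475 and 455 in early sgStat5 and 346 and 357 in early sgControl libraries. Its early groups did not overlap each other or the late groups, while the late groups overlapped. Flt3 (chromosome 5, 147330742 to 147400489, minus strand) stood at 0.398 and 1.76 CPM in late sgStat5, 0.574 and 2.55 in late sgControl, 0.899 and 0.628 in early sgStat5 and 1.30 and 1.48 in early sgControl libraries. No neighbouring groups were apart in its order of levels. Its replicates within the late gate differed by 2.04 and 2.08 on the log2 scale in sgStat5 and sgControl cells.

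**Figure D1:**
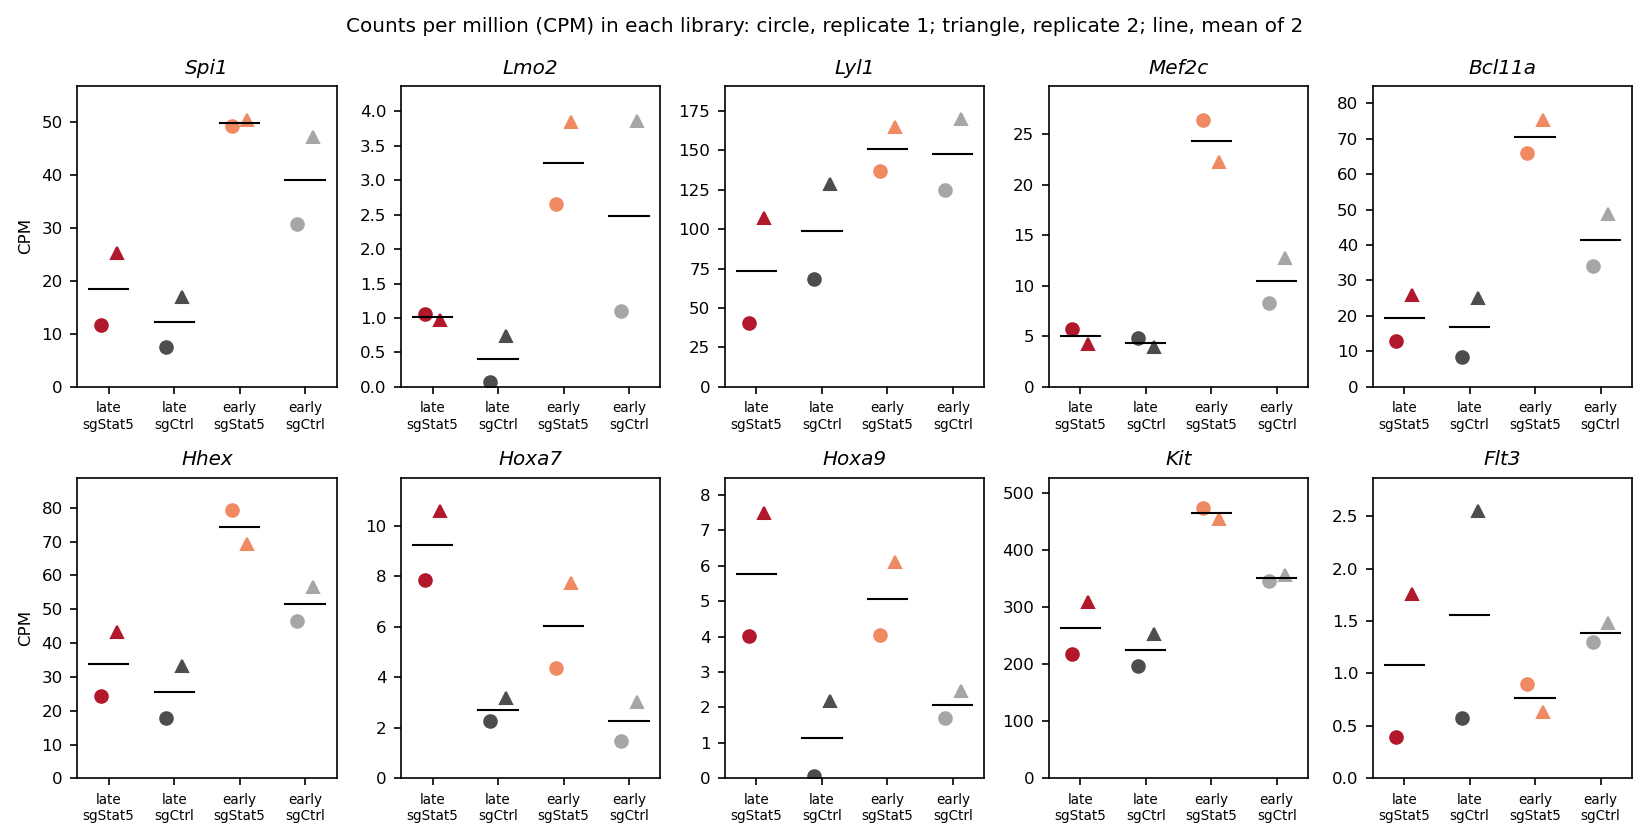
CPM of the 10 genes on a linear axis from 0 in late sgStat5, late sgControl, early sgStat5 and early sgControl libraries; circles are replicate 1, triangles replicate 2 and lines the mean of 2. Spi1, Bcl11a, Hhex, Mef2c and Kit sit highest in early sgStat5 libraries, and Hoxa7 and Hoxa9 in sgStat5 libraries of both gates.

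Promoter windows of 250 bases before to 50 after each start, from RefSeq on GRCm38.p6, were at hand for 8 of the 10 genes, 11 windows in all. Spi1 and Lmo2 had no entry. A set of 4 motifs was searched on both strands, and they share no letters with one another in any hit. The STAT5 palindrome TTCNNNGAA was found in 2 of the 11 windows, 1 each of Mef2c and Bcl11a, and in 8.30% of all 32851 promoters of the same length. The PU.1 core GAGGAA was found in 6 of the 11 windows, belonging to 4 genes, Lyl1, Mef2c, Hoxa9 and Kit, and in 28.3% of all promoters. The GATA letters AGATAA and the RUNX letters TGTGGT were in none of the 11 windows, against 11.2% and 16.8% of all promoters. A single window each of Mef2c, Bcl11a, Hoxa9 and Kit is shown, since these genes hold matches and their values separate the groups, with every match in that window in capitals. Positions count from the start base at 0. In Mef2c the palindrome TTCTTGGAA begins at -157 and a PU.1 core at -122, and in Bcl11a the palindrome TTCGACGAA begins at -224. Hoxa9 holds PU.1 cores at -207, -87, -12 and -3, and Kit holds 1 at -223. Windows that are not shown hold a PU.1 core at -186 from a second start of Mef2c and at -110 in Lyl1. The other window of Kit overlaps the shown one, and the same core lies at -227 from its start. The windows of Mef2c and Bcl11a belong to other starts than the transcripts that were counted. A match is a string of letters, not a shown binding site.
Mef2c (chr13:83503784-83504083, plus strand): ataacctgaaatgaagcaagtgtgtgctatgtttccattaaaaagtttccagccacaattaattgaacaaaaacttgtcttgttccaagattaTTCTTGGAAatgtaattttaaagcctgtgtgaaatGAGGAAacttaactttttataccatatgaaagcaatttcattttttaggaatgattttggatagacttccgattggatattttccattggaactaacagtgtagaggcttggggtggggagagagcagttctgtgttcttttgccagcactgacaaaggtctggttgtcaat
Bcl11a (chr11:24080445-24080744, plus strand): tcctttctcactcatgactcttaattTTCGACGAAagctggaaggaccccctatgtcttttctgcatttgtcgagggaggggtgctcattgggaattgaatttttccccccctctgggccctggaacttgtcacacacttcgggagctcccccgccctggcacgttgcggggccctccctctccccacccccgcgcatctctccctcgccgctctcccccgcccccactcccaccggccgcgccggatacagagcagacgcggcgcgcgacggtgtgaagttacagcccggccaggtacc
Hoxa9 (chr6:52227321-52227620, minus strand): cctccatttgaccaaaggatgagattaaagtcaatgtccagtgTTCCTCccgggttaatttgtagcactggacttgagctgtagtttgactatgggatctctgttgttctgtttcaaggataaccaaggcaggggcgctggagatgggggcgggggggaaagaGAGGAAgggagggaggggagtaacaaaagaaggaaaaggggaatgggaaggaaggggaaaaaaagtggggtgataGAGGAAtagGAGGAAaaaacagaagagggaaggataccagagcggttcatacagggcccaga
Kit (chr5:75574737-75575036, plus strand): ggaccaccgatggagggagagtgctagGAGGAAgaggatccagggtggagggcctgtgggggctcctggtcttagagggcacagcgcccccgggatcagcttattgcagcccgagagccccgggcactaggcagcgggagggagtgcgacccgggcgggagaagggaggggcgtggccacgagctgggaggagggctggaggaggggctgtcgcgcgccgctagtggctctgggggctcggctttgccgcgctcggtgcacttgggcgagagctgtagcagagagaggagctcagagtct

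The first comparison asks how the genes differ between the late and the early gate. Of the 10 genes, 7 (Spi1, Bcl11a, Lmo2, Lyl1, Hhex, Mef2c and Kit) were lower in the late than in the early library whenever libraries of 1 guide arm and 1 replicate number were paired. Over all genes tested, 24.3% were lower in each of these 4 pairs. Hoxa7 was higher in each pair, where 27.0% of all genes were. Without the block the median log2 difference of the members in sgStat5 cells was -1.08, against 0.026 over all genes, and in sgControl cells it was -0.94, against 0.034. Without regard to pairs, both late libraries lay below both early ones for 7 members in sgStat5 cells, where 28.1% of all genes did, and for 6 in sgControl cells, where 24.2% did. Both late libraries lay above both early ones for 1 member, Hoxa7, in sgStat5 cells (28.1% of all genes) and for none in sgControl cells (24.6%). The 2 guide arms are separate libraries under the same replicate numbers, and the labels do not say whether same-numbered libraries shared a culture or animal.

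In sgStat5 cells, without the block, 1 of 10 members was called, Mef2c, against 0.973% of all genes in either direction with 0.661% higher and 0.312% lower. Mef2c fell by 2.29 on the log2 scale (SE 0.29, adjusted p = 0.0480 by edgeR). The call was lost when any 1 of 6 of the 8 libraries was left out, namely any sgStat5 library or either early sgControl library, with adjusted p between 0.0275 and 0.268. With the block 6 members were lower, against 11.5% of all genes, and 0 were higher, against 11.3%. Mef2c (adjusted p = 0.000924), Bcl11a, which fell by 1.96 (SE 0.27, adjusted p = 0.00180), Kit, which fell by 0.84 (SE 0.13, adjusted p = 0.00256), and Spi1, which fell by 1.55 (SE 0.25, adjusted p = 0.00347), passed with any 1 library left out. Lyl1 fell by 1.16 (SE 0.22, adjusted p = 0.00729) and Hhex by 1.20 (SE 0.23, adjusted p = 0.00763), and both calls were lost without late sgStat5 replicate 1. Without the block these 5 genes had adjusted p from 0.0741 for Kit to 0.231 for Lyl1.

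In sgControl cells no member was called by edgeR without the block, and 0.0145% of all genes were. At an unadjusted p under 0.05 there were 6 members and 2049 genes, and DESeq2 called 3 members, Spi1, Mef2c and Kit, among 578 genes. With the block 5 members were lower, against 4.30% of all genes, and none was higher, against 6.64%. Spi1 fell by 1.72 (SE 0.25, adjusted p = 0.00533), against an adjusted p of 0.237 without the block. Bcl11a fell by 1.41 (SE 0.27, adjusted p = 0.0144), Mef2c by 1.28 (SE 0.27, adjusted p = 0.0201), Hhex by 1.05 (SE 0.23, adjusted p = 0.0246) and Kit by 0.65 (SE 0.13, adjusted p = 0.0148). Each of the 5 calls was lost without late sgControl replicate 1, and those of Spi1, Bcl11a, Hhex and Kit also without early sgControl replicate 1. The calls of Mef2c and Hhex were lost without early sgControl replicate 2, and that of Mef2c without late sgControl replicate 2.

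Lmo2 had a late minus early value of -2.62 with the block in sgControl cells (SE 0.76, adjusted p = 0.0577) and of -1.60 in sgStat5 cells (SE 0.71, adjusted p = 0.137), and was called in neither fit. The first of these rests on the library with 2 counts, and in the fit without the block it was -2.57 with all libraries and -4.96 to -1.39 without single libraries. Lyl1 was not called in sgControl cells (-0.63 with the block, SE 0.22, adjusted p = 0.0984). The HOXA genes and Flt3 were called in neither arm by either fit. Hoxa7 had a late minus early value of 0.65 with the block in sgStat5 cells (SE 0.27, adjusted p = 0.117) and 0.30 in sgControl cells (SE 0.29, adjusted p = 0.555). Hoxa9 had 0.13 with the block in sgStat5 cells (SE 0.65, adjusted p = 0.907) and -1.20 in sgControl cells (SE 0.73, adjusted p = 0.331), the second resting on the library with 2 counts. Flt3 was at 0.18 with the block (SE 0.86, adjusted p = 0.900) in sgStat5 cells and -0.087 (SE 0.80, adjusted p = 0.959) in sgControl cells.

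**Figure D2:**
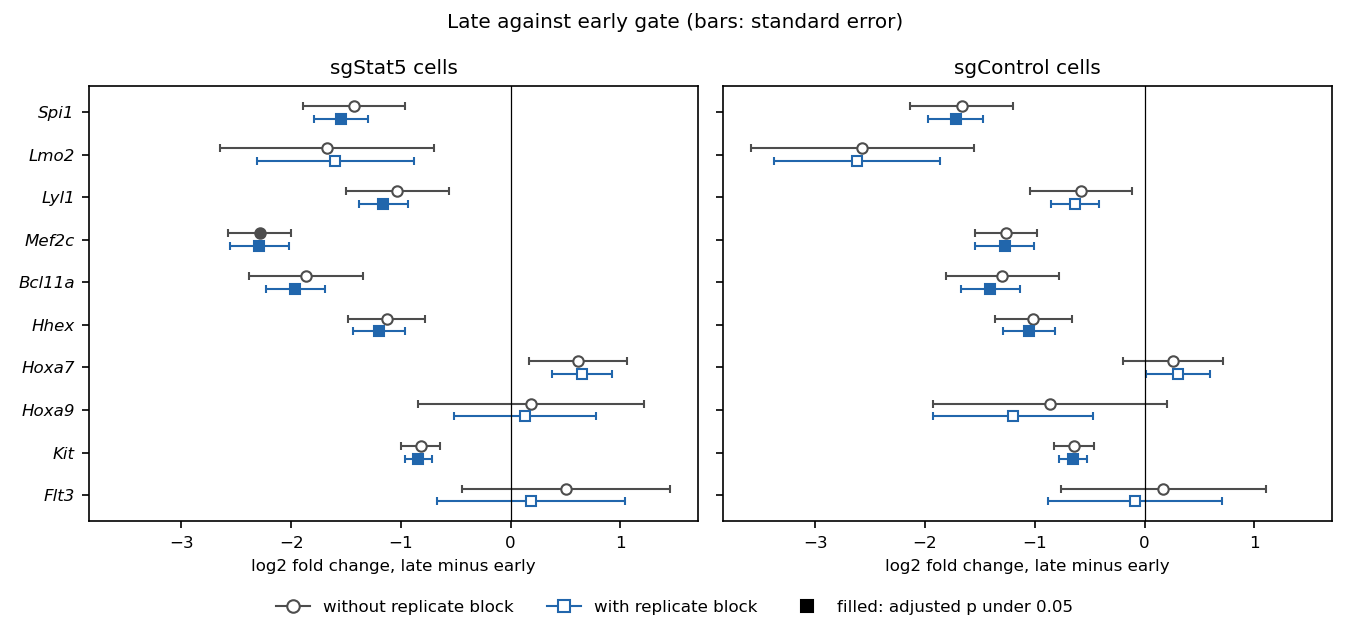
Log2 fold changes, late minus early gate, of the 10 genes in sgStat5 cells (left) and sgControl cells (right) from edgeR without (circles) and with (squares) the replicate block; bars are standard errors and filled symbols have an adjusted p under 0.05. Spi1, Bcl11a, Mef2c, Hhex and Kit lie left of 0 and are filled in both arms with the block, while Hoxa7 lies right of 0.

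Bulk libraries cannot tell fewer cells of a type from less RNA per cell. Markers of other cell types moved with the gates, and their part in these differences was not tested. All 14 T-progenitor markers were detected in every group, and they summed to 6601 to 8290 CPM in late sgStat5, 6776 to 9322 in late sgControl, 4702 to 5036 in early sgStat5 and 5410 to 6403 in early sgControl libraries. The 13 myeloid markers, led by Mpo and Ctsg, summed to 12.2 to 30.5 CPM in late sgStat5, 14.6 to 26.2 in late sgControl, 80.5 to 90.6 in early sgStat5 and 57.4 to 64.3 in early sgControl libraries. Elane held 0 to 9 counts and Ly6g 0 to 2 counts per library. The 10 megakaryocyte and erythroid markers, led by Hbb-bs and Itga2b, summed to 60.0 to 185 CPM in late sgStat5, 24.7 to 162 in late sgControl, 792 to 801 in early sgStat5 and 491 to 596 in early sgControl libraries. Within this list Pf4 and Gp9 each held 0 to 5 counts per library. Gata1 did not follow the sum, at 2.17 and 2.04 CPM in late sgStat5 and 2.72 and 1.06 CPM in late sgControl libraries. In the early gate it stood at 1.35 and 0.259 CPM in sgStat5 and 1.30 and 0.418 CPM in sgControl libraries. The myeloid and the megakaryocyte-erythroid sums were thus lower in every late library than in any early one, as 6 of the members were.

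The 10 natural killer and innate lymphoid markers, led by Gzmb, summed to 59.6 to 104 CPM in late sgStat5, 53.8 to 175 in late sgControl, 265 to 324 in early sgStat5 and 371 to 459 in early sgControl libraries. The 9 dendritic markers summed to 290 to 311 CPM in late sgStat5, 159 to 162 in late sgControl, 198 to 223 in early sgStat5 and 170 to 175 in early sgControl libraries, with Siglech at 0 to 3 counts. The 9 mast-cell markers summed to 331 to 496 CPM in late sgStat5, 243 to 318 in late sgControl, 373 to 756 in early sgStat5 and 318 to 662 in early sgControl libraries, nearly all of it Cpa3, while Cma1 was at 0 and Fcer1a at 0 or 1. The 9 B-cell markers summed to 6.93 to 17.9 CPM, with Ms4a1 at 0 and Pax5 at 0 or 1. The 12 stromal markers summed to 256 to 553 CPM in late sgStat5, 224 to 603 in late sgControl, 112 to 324 in early sgStat5 and 141 to 364 in early sgControl libraries. Kitl, which encodes the ligand of Kit and is made by stroma, is among them at 2 to 275 counts per library. Pdgfrb, also a stromal marker, stood at 69.4 to 110 CPM in every library. Col1a1, by contrast, was higher in replicate 2 of each group. It stood at 29.2 and 76.3 CPM in late sgStat5 and 28.9 and 83.0 CPM in late sgControl libraries. In the early gate it stood at 0 and 36.2 CPM in sgStat5 and 7.99 and 50.3 CPM in sgControl libraries.

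The second comparison asks what the Stat5 guides changed in the late gate. Hoxa7, Hoxa9 and Lmo2 were higher in both sgStat5 libraries than in both sgControl libraries, 3 of 10 members, where 18.1% of all genes were, and none was lower throughout, where 20.8% were. Without the block edgeR called 0 members, against 1.71% of all genes (0.755% higher and 0.951% lower). At an unadjusted p under 0.05 there were 1 member and 1713 genes, and DESeq2 called 1 member, Hoxa7, among 629 genes. With the block 1 member was called, against 8.22% of all genes; it was higher, as were 3.72%, and none was lower, against 4.49%. Hoxa7 averaged 9.22 ± 1.92 CPM in late sgStat5 and 2.71 ± 0.638 CPM in late sgControl libraries (SD, n = 2 each) and rose by 1.77 on the log2 scale with the block (SE 0.28, adjusted p = 0.00549 by edgeR), against an adjusted p of 0.156 without it. The blocked call was lost without late sgControl replicate 2 or late sgStat5 replicate 1, with adjusted p up to 0.0634.

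Hoxa9 averaged 5.76 ± 2.46 CPM in late sgStat5 and 1.14 ± 1.50 CPM in late sgControl libraries (SD, n = 2 each). Its log2 fold change was 2.62 with the block (SE 0.72, adjusted p = 0.0592) and 2.33 without it (SE 1.09, adjusted p = 0.456), and it was not called. Its 2 same-numbered pairs differed by 5.15 and 1.75, the first against the library with 2 counts. Lmo2 had 1.61 with the block (SE 0.79, adjusted p = 0.276), and without the block 1.28, with 0.43 to 3.66 when single libraries were left out. Mef2c (0.18), Bcl11a (0.25), Hhex (0.42), Kit (0.22) and Spi1 (0.60) had blocked standard errors of 0.13 to 0.27 and adjusted p from 0.205 to 0.761. Lyl1 at -0.47 (SE 0.22, adjusted p = 0.260) and Flt3 at -0.52 (SE 0.80, adjusted p = 0.771) were the only members below 0, and neither was called.

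The third comparison asks the same of the early gate. Spi1, Bcl11a, Hhex, Mef2c, Hoxa7, Hoxa9 and Kit were higher in both sgStat5 libraries than in both sgControl libraries, 7 of 10 members, where 18.7% of all genes were. Flt3 was lower throughout, as were 19.4% of all genes. Without the block edgeR called 0 members, against 0.269% of all genes (0.123% higher and 0.145% lower), and at an unadjusted p under 0.05 there were 2 members and 887 genes. DESeq2 called 1 member, Mef2c, among 247 genes. With the block 2 members were called, against 2.33% of all genes; both were higher, against 1.0% of all genes, and none was lower, against 1.33%.

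Mef2c averaged 24.3 ± 2.98 CPM in early sgStat5 and 10.5 ± 3.16 CPM in early sgControl libraries (SD, n = 2 each). It rose by 1.20 with the block (SE 0.26, adjusted p = 0.0493 by edgeR), against an adjusted p of 0.244 without it, and the call held only when early sgControl replicate 2 was left out, with adjusted p of 0.0207 to 0.436. Hoxa7 averaged 6.04 ± 2.38 CPM in early sgStat5 and 2.26 ± 1.08 CPM in early sgControl libraries (SD, n = 2 each). It rose by 1.43 with the block (SE 0.29, adjusted p = 0.0378), against an adjusted p of 0.560 without it, and the call was lost without any early library or either late sgStat5 library, with adjusted p up to 0.376. In both gates Hoxa7 was thus higher with the Stat5 guides, and its 4 pair differences lay between 1.34 and 1.78.

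The other early-gate members were not called. Kit averaged 465 ± 13.8 CPM in early sgStat5 and 352 ± 7.62 CPM in early sgControl libraries (SD, n = 2 each), with a log2 fold change of 0.41 with the block (SE 0.13, adjusted p = 0.193). Bcl11a averaged 70.5 ± 6.60 CPM in early sgStat5 and 41.5 ± 10.3 CPM in early sgControl libraries (0.81, SE 0.26, adjusted p = 0.210). Hhex had 0.56 (SE 0.23, adjusted p = 0.344), Spi1 0.42 (SE 0.24, adjusted p = 0.528), Hoxa9 1.29 (SE 0.68, adjusted p = 0.489) and Lmo2 0.59 (SE 0.68, adjusted p = 0.795). Lyl1 was near 0 at 0.055 (SE 0.22, adjusted p = 0.954). Flt3 was at -0.79 (SE 0.82, adjusted p = 0.768) on 17 and 20 counts in early sgStat5 and 33 and 46 counts in early sgControl libraries.

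Over the 4 same-numbered pairs of both gates, 7 of 10 members, Spi1, Bcl11a, Hhex, Mef2c, Hoxa7, Hoxa9 and Kit, were higher with the Stat5 guides each time, where 16.5% of all genes were. Flt3 was lower each time, as were 18.9% of all genes. Without the block the median log2 fold change of the members was 0.32 in the late gate, against -0.016 over all genes, and 0.46 in the early gate, against -0.00012.

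**Figure D3:**
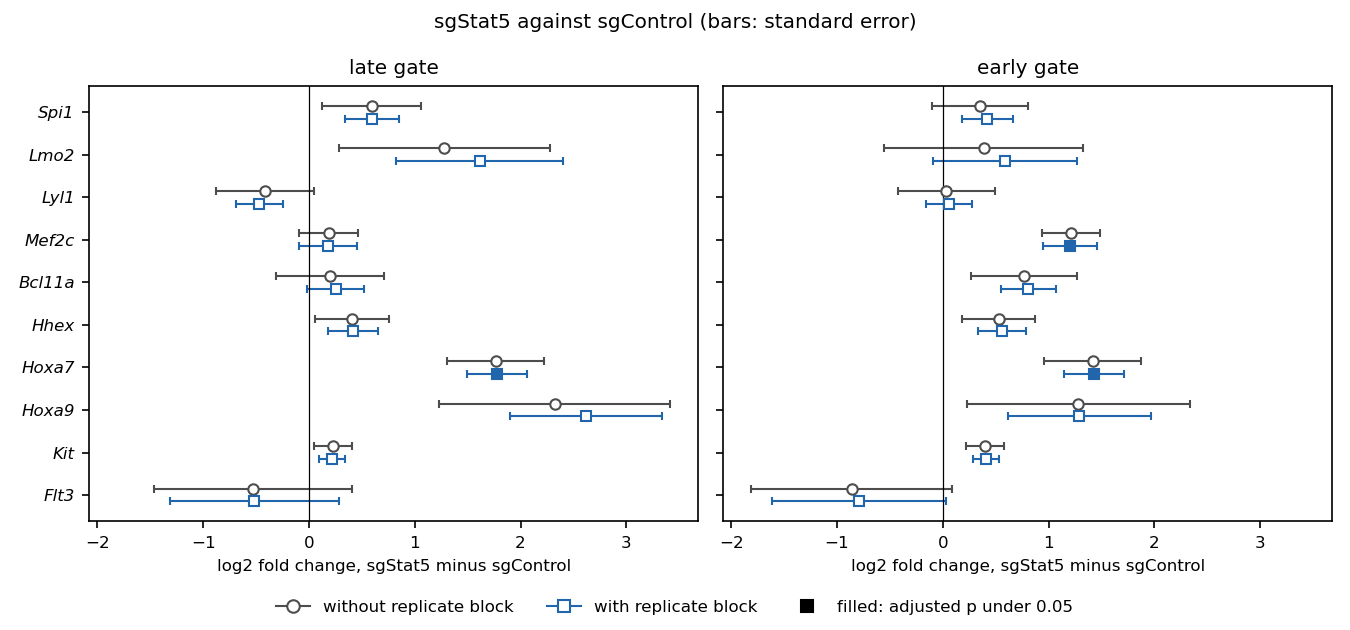
Log2 fold changes, sgStat5 minus sgControl, of the 10 genes in the late gate (left) and the early gate (right) from edgeR without (circles) and with (squares) the replicate block; bars are standard errors and filled symbols have an adjusted p under 0.05. Hoxa7 is filled in both gates and Mef2c in the early gate, each with the block, and Flt3 lies left of 0 in both.

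Other markers moved with the guides in the same libraries, as the sums above show. In the late gate the dendritic and mast-cell sums were higher in both sgStat5 libraries than in both sgControl libraries. The T-progenitor sums overlapped, but with the block 6 of the 14 markers were higher and 2 lower, against 3.72% and 4.49% of all genes. The reporter gene Bcl11b was among the higher (0.74, SE 0.14, adjusted p = 0.0106 by edgeR), against an adjusted p of 0.755 without the block. Ptcra, Rag1, Tcf7, Gata3 and Notch3 were the other higher ones, and Il2ra and Thy1 the lower ones. Without the block only Il2ra was called. Most of the dendritic rise lay in Cd74, H2-Ab1 and H2-Aa. H2-Ab1 stood at 32.1 and 35.5 CPM in late sgStat5 and 9.04 and 4.87 CPM in late sgControl libraries. Cd74 had a late-gate log2 fold change of 3.73 without the block and was not called (SE 0.82, adjusted p = 0.0943 by edgeR). With the block its change was 3.98 and it was called (SE 0.33, adjusted p = 0.000202). Bst2 and Tcf4 were also higher in both late sgStat5 libraries. Itgax overlapped, at 2.65 and 3.84 CPM in late sgStat5 and 1.68 and 3.71 CPM in late sgControl libraries. In the early gate the myeloid, dendritic and megakaryocyte-erythroid sums were higher and the T-progenitor and natural killer sums lower. Single markers carried some of these sums while others went the other way. Among the myeloid markers Mpo stood at 55.8 and 32.1 CPM in early sgStat5 and 21.7 and 17.8 CPM in early sgControl libraries. Ctsg, which encodes another granule protein, stood at 17.4 and 20.6 CPM in early sgStat5 and 23.0 and 28.9 CPM in early sgControl libraries. The natural killer sum followed Gzmb, at 189 and 251 CPM in early sgStat5 and 316 and 394 CPM in early sgControl libraries. Zbtb16, the next most abundant marker of that list, lay the other way, at 70.7 and 66.6 CPM in early sgStat5 and 51.7 and 51.0 CPM in early sgControl libraries. Il2ra, a T-progenitor marker, stood at 1980 and 2155 CPM in early sgStat5 and 3152 and 2887 CPM in early sgControl libraries. In the late gate it stood at 1374 and 1886 CPM in sgStat5 and 2948 and 3075 CPM in sgControl libraries. Its late-gate log2 fold change without the block was -0.89 (SE 0.14, adjusted p = 0.0352 by edgeR). Of the 14 T-progenitor markers, however, 9 had an early-gate log2 fold change above 0 without the block and 5 below. Their median was 0.13. Tcf7, for one, stood at 1275 and 1186 CPM in early sgStat5 and 1139 and 1115 CPM in early sgControl libraries. The part of all these markers in the guide differences of the members was not tested.

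Whether the guide effect differed between the gates was tested as an interaction. No member and no gene passed by edgeR, without or with the block (0.00% of all genes each). At an unadjusted p under 0.05 without the block there were 1 member and 302 genes, and DESeq2 called 0 members and 2 genes. Mef2c had the largest of these differences relative to its error, -1.01 late minus early with the block (SE 0.37, adjusted p = 0.745), with sgStat5 minus sgControl values of 0.18 in the late gate and 1.20 in the early gate. For Hoxa7 the difference was 0.35 (SE 0.40, adjusted p = 0.926) and for Kit -0.19 (SE 0.18, adjusted p = 0.900). The adjusted p of the members ran from 0.745 to 0.979 with the block.

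Patterns over the 8 libraries were compared as log2 CPM centred on each gene's mean, by the root-mean-square difference, a description with no test. Spi1 and Bcl11a were each other's nearest member at 0.210, against a root-mean-square of 0.962 for Spi1's own pattern and 1.03 for Bcl11a's, and no tested gene lay nearer to Bcl11a and 1 nearer to Spi1. The tested genes outside the list that lay nearest to Spi1 were Angpt1 (0.181), Rgs18 (0.229) and Cd34 (0.240), of which Cd34 encodes a surface antigen of progenitors. Kit and Hhex were each other's nearest member at 0.273, but 386 tested genes lay nearer to Kit and 23 nearer to Hhex, and genes near to Kit included Lacc1 (0.0967) and Myl6b (0.114). Among members Mef2c lay nearest to Hhex (0.601), Lmo2 to Bcl11a (0.792) and Hoxa9 to Lmo2 (1.05), with 39, 40 and 35 tested genes nearer. Hoxa9 and Lmo2 had root-mean-squares of 1.78 and 1.55. Both held 2 counts in late sgControl replicate 1, where they lay at -4.35 and -3.41 from their means. Lyl1 lay nearest to Kit (0.420), with 534 tested genes nearer, and Flt3 to Lyl1 (0.675), with 325 nearer. Hoxa7 had no near member, with Kit closest at 0.958, beyond its own root-mean-square of 0.911. Flt3's nearest genes were Bbs7 (0.395), Abcb1a (0.418) and Prdx4 (0.452). Replicate 2 was above replicate 1 in all 4 groups for 5 members, Spi1, Bcl11a, Lyl1, Hoxa7 and Hoxa9, where 19.5% of all genes were, and below it in all 4 for Bcl11b.

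**Figure D4:**
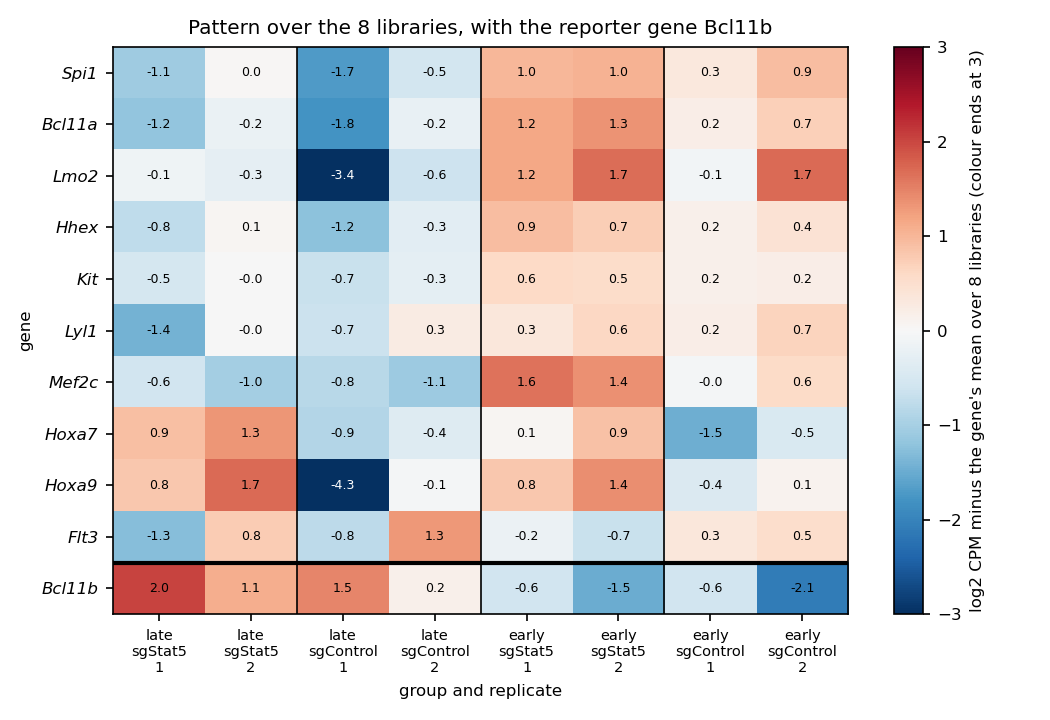
Log2 CPM of the 10 genes and of the reporter gene Bcl11b minus each gene's mean over the 8 libraries, with libraries in columns by group and replicate and the value in each cell; the colour scale ends at 3 in each direction. Spi1, Bcl11a, Hhex and Kit lie above their mean in all early libraries, and the lowest cells are Lmo2 and Hoxa9 in late sgControl replicate 1.

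Genes that work with the members were read from lists. PU.1 acts with IRF8 and other partners on myeloid genes, and 20 of 20 such genes were tested. Late minus early, none was called without the block in sgStat5 cells or in sgControl cells, where 0 of 20 stood against 0.973% and 0.0145% of all genes. With the block 8 were lower and 3 higher in sgStat5 cells, where 11.5% of all genes were lower and 11.3% higher. In sgControl cells 7 were lower and 1 higher, where 4.30% of all genes were lower and 6.64% higher, so the higher counts lay near the shares over all genes. The median was -0.68 in each arm without the block. Ncf1, which encodes a subunit of the phagocyte oxidase, stood at 5.04 and 22.4 CPM in late sgStat5, 2.53 and 14.9 in late sgControl, 39.3 and 70.0 in early sgStat5 and 25.4 and 59.0 in early sgControl libraries. With the block it fell by 2.27 late minus early in sgStat5 cells (SE 0.34, adjusted p = 0.00265) and by 2.49 in sgControl cells (SE 0.35, adjusted p = 0.00483). The Fc receptor chain gene Fcer1g fell by 1.77 in sgStat5 cells (SE 0.26, adjusted p = 0.00245) and by 1.69 in sgControl cells (SE 0.26, adjusted p = 0.00606), and the kinase genes Lyn and Syk were also lower in both arms. Irf8 was among the 3 higher in sgStat5 cells with the block, up by 0.91 (SE 0.21, adjusted p = 0.0147). In sgControl cells it was not called (-0.23, SE 0.21, adjusted p = 0.543).

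With the Stat5 guides 1 of the 20 was called in the late gate, in both fits, and it was higher, as were 0.755% of all genes without the block and 3.72% with it. Irf8, which encodes an interferon regulatory factor of myeloid and dendritic cells, stood at 21.3 and 24.3 CPM in late sgStat5 and 8.85 and 7.32 CPM in late sgControl libraries. In the fit without the block its log2 fold change was 1.50 (SE 0.24, adjusted p = 0.0329). In the early gate it stood at 9.84 and 14.6 CPM in sgStat5 and 8.93 and 10.1 CPM in sgControl libraries and was not called (0.36, SE 0.23, adjusted p = 0.934). None of the 20 was called in the early gate in either fit.

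The 12 partners of the LMO2 complex were all tested. Late minus early, Tcf12, which encodes an E protein that pairs with LYL1 and TAL1, was the single call without the block, in sgStat5 cells, where it stood at 556 and 429 CPM in the late and 252 and 231 CPM in the early gate and differed by 1.03 on the log2 scale (SE 0.17, adjusted p = 0.0486). With the block 4 of the 12 were higher and 1 lower in each arm, where 11.3% of all genes were higher and 11.5% lower in sgStat5 cells and 6.64% higher and 4.30% lower in sgControl cells. The lower one was Tal1, the helix-loop-helix paralog of Lyl1, with 1.99 and 7.75 CPM in late sgStat5, 2.76 and 5.68 in late sgControl, 15.1 and 16.8 in early sgStat5 and 15.6 and 18.4 in early sgControl libraries. It fell by 1.87 in sgStat5 cells (SE 0.39, adjusted p = 0.00936) and by 2.09 in sgControl cells (SE 0.38, adjusted p = 0.0126). With the Stat5 guides 2 partners were higher in the late gate with the block, where 3.72% of all genes were, Tcf12 (0.63, SE 0.09, adjusted p = 0.00307) and Ssbp2, which encodes a stabiliser of the complex (0.97, SE 0.19, adjusted p = 0.0158). Without the block none was called for the guides in either gate.

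Of 24 other stem and progenitor factors, 23 were tested and none was called without the block in any comparison. With the block, late minus early, 5 were lower and 2 higher in sgStat5 cells, against 11.5% and 11.3% of all genes, and 4 were lower and 2 higher in sgControl cells, against 4.30% and 6.64%. Mycn, a MYC-family gene, stood at 15.4 and 46.3 CPM in late sgStat5, 25.7 and 47.2 in late sgControl, 105 and 148 in early sgStat5 and 83.7 and 136 in early sgControl libraries. It fell by 2.17 in sgStat5 cells (SE 0.21, adjusted p = 0.000436) and by 1.62 in sgControl cells (SE 0.21, adjusted p = 0.00338). Ikzf2, which encodes the zinc-finger factor Helios, stood at 248 and 138 CPM in late sgStat5, 98.4 and 71.9 in late sgControl, 206 and 133 in early sgStat5 and 116 and 78.3 in early sgControl libraries. With the block it rose with the Stat5 guides by 1.14 in the late gate (SE 0.10, adjusted p = 0.000224) and by 0.79 in the early gate (SE 0.10, adjusted p = 0.00369). With the block 3 of the 23 were higher and 1 lower with the guides in the late gate, against 3.72% and 4.49% of all genes, and 1 was higher in the early gate, against 1.0%.

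Of 20 genes for the ligands of Kit and Flt3 and for signalling below them, all were tested and none was called without the block. With the block, late minus early, 6 were lower and 1 higher in sgStat5 cells, against 11.5% and 11.3% of all genes, and 2 were lower and 1 higher in sgControl cells, against 4.30% and 6.64%. A single higher gene among 20 is at or under those shares. The higher one was Cbl, which encodes a ubiquitin ligase that turns over activated receptor kinases, up by 0.71 in sgStat5 cells (SE 0.08, adjusted p = 0.000810) and by 0.65 in sgControl cells (SE 0.08, adjusted p = 0.00304). Ptpn6, which encodes the phosphatase SHP-1, fell by 0.42 in sgStat5 cells (SE 0.07, adjusted p = 0.00478) and by 0.39 in sgControl cells (SE 0.07, adjusted p = 0.0138). With the Stat5 guides 2 were lower in the late gate with the block, against 4.49% of all genes. One was Pik3cd, which encodes a catalytic subunit of PI3 kinase, at 339 and 304 CPM in late sgStat5 and 518 and 405 CPM in late sgControl libraries (fell by 0.52, SE 0.08, adjusted p = 0.00601).

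Of 16 other genes for growth factor and cytokine receptors, 12 were tested. Csf2rb, which encodes the common beta chain of the IL-3 and GM-CSF receptors, stood at 2.39 and 2.94 CPM in late sgStat5 and 7.96 and 11.6 CPM in late sgControl libraries and fell by 1.87 with the guides without the block (SE 0.31, adjusted p = 0.0371) and by 1.86 with it (SE 0.22, adjusted p = 0.00113). Ifngr1, an interferon gamma receptor gene, stood in sgStat5 cells at 218 and 172 CPM in the late and 76.5 and 84.0 CPM in the early gate with a rise of 1.28 late minus early without the block (SE 0.20, adjusted p = 0.0486) and 1.26 with it (SE 0.14, adjusted p = 0.000651). These were the only calls among the 12 without the block. With the block Ifngr1 also rose by 1.45 late minus early in sgControl cells (SE 0.14, adjusted p = 0.000990), at 423 and 292 CPM in the late and 138 and 121 CPM in the early gate. It fell with the Stat5 guides by 0.87 in the late gate (SE 0.13, adjusted p = 0.00470) and by 0.67 in the early gate (SE 0.14, adjusted p = 0.0378), again with the block. In that fit 2 of the 12 were lower with the guides in the late gate and 1 in the early gate, against 4.49% and 1.33% of all genes, and none was higher. Late minus early, 2 were higher and 2 lower in sgStat5 cells, against 11.3% and 11.5% of all genes, and 1 was higher and 1 lower in sgControl cells, against 6.64% and 4.30%. Csf1r, the macrophage growth factor receptor gene and a PU.1 target, was lower in the late gate in both arms with the block, at -2.24 in sgStat5 cells (SE 0.65, adjusted p = 0.0367) and -2.69 in sgControl cells (SE 0.69, adjusted p = 0.0392), on levels of at most 3.59 CPM.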

How the data were processed

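Bulk RNA-seq libraries of 4 groups, 2 each, were grouped by the labels. Tools named by the submitters' processing notes are STAR 2.4.0, RSEM 1.2.25 and bcl2fastq 1.8.4. Per the file headers, HOMER made the deposited counts on mm10 as unscaled exon tags for each gene's representative RefSeq transcript. It also made the deposited FPKM, per the file headers, scaled to length and to the whole library. Coordinates count from 1.

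Genes were kept by filterByExpr and scaled by TMM. edgeR 4.0.16 (R 4.3.3) fitted all 8 libraries with 1 mean per group and a two-sided quasi-likelihood F-test. SE was derived from each fold change and its F statistic. The same fit took the replicate number as a block, since same-numbered libraries deviated together (6 correlations of deviations, 0.397 to 0.555). Common dispersion was 0.0853 without and 0.0178 with it, and residual degrees of freedom 4 and 3. Replicates differed by a chi-square per degree of freedom of 22.7 to 62.0. Alternatives were DESeq2 1.42.0 and its size factors, 2 filters, limma 3.58.1 on log2(FPKM + 1), fits of 2 groups and leaving out each library. Code was tested on simulated data. All members are named. In each other list, called genes and up to 4 genes with the smallest blocked p may be named. Members, lists and tests were chosen with earlier results of these data known.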

Additional observations from a re-analysis of the deposited data

Results flagged for a closer look

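No member was picked out. Besides the members, only the partner genes open to naming by the rule above were screened, not every listed gene. Among these partner genes, 6 had same-numbered pair differences that all ran one way in one gate or guide arm and all the other way in the other. No share over all genes was taken for this screen. For sgStat5 minus sgControl, the late-gate mean minus the early-gate mean was 0.54 for Gfi1, 0.23 for Runx1, -0.61 for Mycn and -0.71 for Nfe2, in log2 CPM. For late minus early, the sgStat5 mean minus the sgControl mean was 0.34 for Ikzf2 and 1.16 for Irf8. The interaction was tested with edgeR and passed for none of the 6, with adjusted p near 1.0 without the block and, with it, 0.642 for Gfi1, 0.836 for Runx1, 0.847 for Mycn, 0.644 for Nfe2, 0.817 for Ikzf2 and 0.529 for Irf8.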

How the results depend on the processing

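The 50 member results (10 genes, 5 comparisons) kept their direction with DESeq2's size factors, the DESeq2 Wald test, no filter on low counts and limma on deposited FPKM. The stricter filter and the fits of only the 2 groups compared gave 40 results each, all in the same direction. Under the replicate block 49 kept it, and Flt3, late minus early in sgControl cells, turned to -0.087. Under leaving out each library 28 kept it. The causes of changes in calls were not tested, except that fits of 2 groups hold fewer libraries.

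For sgStat5 minus sgControl in the late gate, member calls were 0, against 1 with DESeq2, 1 with the block and 0 to 1 without single libraries, and calls over all genes were 235, against 629 with DESeq2, 1132 with the block, 4 with only the 2 groups and 63 to 151 without single libraries. In the early gate member calls were 0, against 1 with DESeq2 and 2 with the block, and calls over all genes were 37, against 247 with DESeq2, 114 with no filter, 321 with the block, 3 with only the 2 groups and 0 to 30 without single libraries. For the difference of these effects, calls over all genes were 0, against 2 with DESeq2. For late minus early in sgStat5 cells, member calls were 1, against 5 with DESeq2, 3 with no filter, 6 with the block, 0 with only the 2 groups and 0 to 2 without single libraries, and calls over all genes were 134, against 1684 with DESeq2, 760 with no filter, 231 with a CPM of at least 5, 3144 with the block, 2 with only the 2 groups and 0 to 529 without single libraries. In sgControl cells member calls were 0, against 3 with DESeq2 and 5 with the block, and calls over all genes were 2, against 578 with DESeq2, 83 with no filter, 1507 with the block, 0 with limma, 0 with only the 2 groups and 0 to 32 without single libraries. In the fit with the block, leaving out single libraries, an alternative chosen after seeing the data, gave 0 to 1 member calls for the guides in the early gate, 0 to 2 in the late gate and 0 to 7 for late minus early in sgControl cells.

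Without single libraries, sgStat5 minus sgControl in the late gate ranged from -0.075 to 1.32 for Spi1, -1.30 to 0.13 for Lyl1, -0.050 to 0.39 for Mef2c, -0.39 to 1.21 for Bcl11a, -0.064 to 0.96 for Hhex, -0.054 to 0.46 for Kit and -1.97 to 0.94 for Flt3. In the early gate it ranged from -0.26 to 1.56 for Lmo2 and -0.18 to 0.28 for Lyl1. The difference of these effects ranged from -0.43 to 0.97 for Spi1, -0.29 to 3.28 for Lmo2, -1.33 to 0.10 for Lyl1, -1.15 to 0.45 for Bcl11a, -0.59 to 0.44 for Hhex, -0.25 to 0.82 for Hoxa7, -0.46 to 0.055 for Kit and -1.10 to 1.80 for Flt3. Late minus early in sgStat5 cells ranged from -0.33 to 0.56 for Hoxa9 and -0.93 to 1.20 for Flt3, and in sgControl cells from -0.16 to 0.86 for Hoxa7, -4.71 to 0.083 for Hoxa9 and -1.29 to 0.89 for Flt3. Depth limits Lmo2, Hoxa9 and Flt3, which held 2, 2 and 9 counts in their lowest library.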
